A study of Homo sapiens with 6 samples.

Results

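The genes described are those for the structural subunits of oxidative phosphorylation, the pathway in the inner mitochondrial membrane that passes electrons from nutrients to oxygen and uses the energy to make ATP. They were chosen by symbol, as protein-coding genes whose names begin NDUFA, NDUFB, NDUFC, NDUFS or NDUFV with a number, SDHA to SDHD, UQCR, COX4 to COX8, ATP5, or MT-ND, MT-CO, MT-ATP and MT-CYB. This gave 103 of the 58735 genes in the deposited tables. Of them 90 are encoded in the nucleus and 13 in the mitochondrial genome, which are all of the proteins that the human mitochondrial genome encodes by its classical annotation. By complex there were 44 genes for complex I, 4 for complex II, 10 for complex III, 22 for complex IV and 23 for complex V. NDUFA4 and its relative NDUFA4L2 were counted with complex IV, since NDUFA4 is known as a subunit of that complex. The symbols also bring in the ATP synthase inhibitor ATP5IF1, the factor ATP5S, the supercomplex factor COX7A2L and the readthrough genes NDUFC2-KCTD14 and ATP5MF-PTCD1, and they leave out NDUFAB1, CYC1 and CYCS, which were looked at separately.

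RNA was sequenced from LX-2, a line of human hepatic stellate cells (the liver's scar-forming cells) whose labelled genotype is WT. All 6 libraries came from cells transfected, by lipofection, with small interfering RNA (siRNA) that the sample labels direct against NSUN2, an RNA cytosine methyltransferase; the series' design text names NAT10 for the same siRNA, and the labels were followed. In 3 libraries there was no further treatment ("untreated" below), and in the other 3 TGF-β1 was added at 5 ng/ml for 24 h, starting 48 h after transfection. The replicates are called biological, with no word on whether they were separate cultures or days, so p-values measure only the spread between these libraries. When untreated cells were harvested is not stated. Cells without siRNA were not analysed here, so the values describe TGF-β1 in siRNA-treated cells only.

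Library totals ran from 25828504 to 30034762 counts. Mesenchymal markers were abundant (VIM at 1060.5 CPM, counts scaled to a common library size, untreated and 1119.5 CPM with TGF-β1, and COL1A1 at 1416 and 3988), and COL3A1, THY1, PDGFRB and ACTA2 averaged 83.8, 73.9, 49.3 and 5.71 CPM over the 6 libraries, whereas the stellate markers DES and PDGFRA were near 0 and LRAT had no count. Of the 6 hepatocyte markers SERPINA1 was at 23.4 CPM and the other 5, ALB among them, were at or near 0. SOX9 (60.9 CPM) and KRT7 (3.56), of the cholangiocyte list, and CSF1R (8.30) and CD14 (6.09), of the macrophage list, were also counted, while EPCAM, KRT19, PTPRC, CD163 and all 6 endothelial markers were under 1 CPM. NSUN2 itself was present in every library, at 81.3, 82.8 and 84.3 CPM without TGF-β1 and 103, 96.9 and 102 CPM with it, and with no library lacking the siRNA its knockdown could not be checked. The bulk libraries cannot tell a lower level in every cell from a change in fewer cells.

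As background, complex I (NADH dehydrogenase) and complex II (succinate dehydrogenase) feed electrons to ubiquinone, complex III passes them to cytochrome c, complex IV (cytochrome c oxidase) hands them to oxygen, and complex V (ATP synthase) uses the resulting proton gradient. Complexes I, III, IV and V are built from subunits of both genomes, while complex II is wholly nuclear. Activated stellate cells are known for a raised demand for energy, and promoters of many nuclear subunit genes are known to carry sites for nuclear respiratory factor 1 (NRF1), for ETS factors such as the GA-binding protein, and for YY1.

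RefSeq promoter sequences (build GRCh38.p14, 250 bases before to 50 bases after the gene start) were matched to 70 of the 90 nuclear genes. The NRF1 motif GCGCATGCG, searched on both strands, was in 10 of 70 promoters (14.3%), against 2.76% of 15843 protein-coding promoters of the same length. The ETS motif CCGGAAG was in 20 of 70 (28.6%) against 14.2%, and the YY1 motif AAGATGGCG in 8 of 70 (11.4%) against 2.74%. The ESRRA motif TCAAGGTCA was in 1 of 70 (1.43%) against 0.240%, and the TATA box letters TATAAA were in 7 of 70 (10.0%) against 9.63%. The sequences below show these letters in all 6 genes that changed with TGF-β1 and had an NRF1, ETS or YY1 match, and in SDHD, a complex II gene that did not pass the test and that carries both the NRF1 and the ETS letters. Each stretch ends just before the RefSeq start, 5′ to 3′ on the gene's strand, with NRF1 and ETS matches in capitals. An NRF1 match on one strand reads CGCATGCGC on the other, and where both strands match, the overlapping letters give a 10-base run.
NDUFB7 (chr19:14572067-14572231, minus strand; lower with TGF-β1, ETS): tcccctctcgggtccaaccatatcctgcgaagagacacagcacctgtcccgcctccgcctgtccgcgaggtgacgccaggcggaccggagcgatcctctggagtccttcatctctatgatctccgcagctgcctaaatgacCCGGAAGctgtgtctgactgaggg
UQCRQ (chr5:132866477-132866641, plus strand; lower, ETS): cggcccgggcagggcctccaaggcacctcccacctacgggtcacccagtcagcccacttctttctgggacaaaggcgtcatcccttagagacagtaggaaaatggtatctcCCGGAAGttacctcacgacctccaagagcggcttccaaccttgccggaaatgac
COX6B1 (chr19:35648158-35648322, plus strand; lower, ETS on the other strand): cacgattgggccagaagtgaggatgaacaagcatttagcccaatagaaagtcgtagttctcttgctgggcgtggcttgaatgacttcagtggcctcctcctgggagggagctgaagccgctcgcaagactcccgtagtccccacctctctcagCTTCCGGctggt
COX8A (chr11:63974455-63974619, plus strand; lower, ETS on the other strand): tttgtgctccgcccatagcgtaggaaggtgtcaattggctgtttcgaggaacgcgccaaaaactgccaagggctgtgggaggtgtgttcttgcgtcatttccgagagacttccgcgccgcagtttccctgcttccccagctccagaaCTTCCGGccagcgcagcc
ATP5MC2 (chr12:53676084-53676248, minus strand; lower, NRF1 on the other strand): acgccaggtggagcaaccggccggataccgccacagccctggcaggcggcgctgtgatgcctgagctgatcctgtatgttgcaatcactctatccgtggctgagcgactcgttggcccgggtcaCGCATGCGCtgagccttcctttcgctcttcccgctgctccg
NDUFB4 (chr3:120596171-120596335, plus strand; higher, NRF1 on both strands): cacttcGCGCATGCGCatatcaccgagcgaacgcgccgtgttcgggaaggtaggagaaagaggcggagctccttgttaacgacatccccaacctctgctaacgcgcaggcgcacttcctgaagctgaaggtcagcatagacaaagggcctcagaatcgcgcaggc
SDHD (chr11:112086708-112086872, plus strand; not passed, NRF1 on both strands and ETS on the other): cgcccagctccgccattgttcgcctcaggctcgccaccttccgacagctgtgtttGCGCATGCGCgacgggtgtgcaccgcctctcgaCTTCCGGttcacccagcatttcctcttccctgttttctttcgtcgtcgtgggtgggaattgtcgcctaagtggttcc
Among the 14 matched promoters of genes that were lower with TGF-β1, 1 held the NRF1 letters, 4 the ETS letters and 0 the YY1 letters. Among the 50 matched promoters of tested genes that did not pass, the counts were 8, 16 and 8. A match describes the letters in this window and is not a measured binding site. The RefSeq start need not be the start of the gene as counted. For NDUFA5 (minus strand) the window is chr7:123601602-123601901, while the deposited gene ends at 123558255. The ATP5MC2 window lies inside its deposited gene.

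The transcripts of the 2 genomes stood at very different levels. Per gene length, the 13 mitochondrial genes had a median of 1174 FPKM (fragments per kilobase of gene length, scaled to library size; the authors' deposited values, mean of both groups), from 17.4 for MT-ATP8 to 4255 for MT-CO1. The 90 nuclear genes had a median of 17.5 FPKM, with ATP5F1B, the catalytic beta subunit of the ATP synthase head, highest at 255, and 13 of them were under 1 FPKM. Gene length here counts all annotated exonic bases, so levels compared between genes depend on the annotation. Without division by length, the medians of the tested genes were 1257 CPM (mitochondrial) and 51.5 CPM (nuclear). Within the mitochondrial genome the order was MT-CO1, MT-CO2 (2488), MT-CO3 (2125), MT-ND4 (1978) and MT-ATP6 (1961). MT-ND4 and MT-ATP6 lay within each other's spread in both groups. The lowest but MT-ATP8 was MT-ND6, at 270, which is the subunit gene read from the opposite strand to the other 12.

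**Figure D1:**
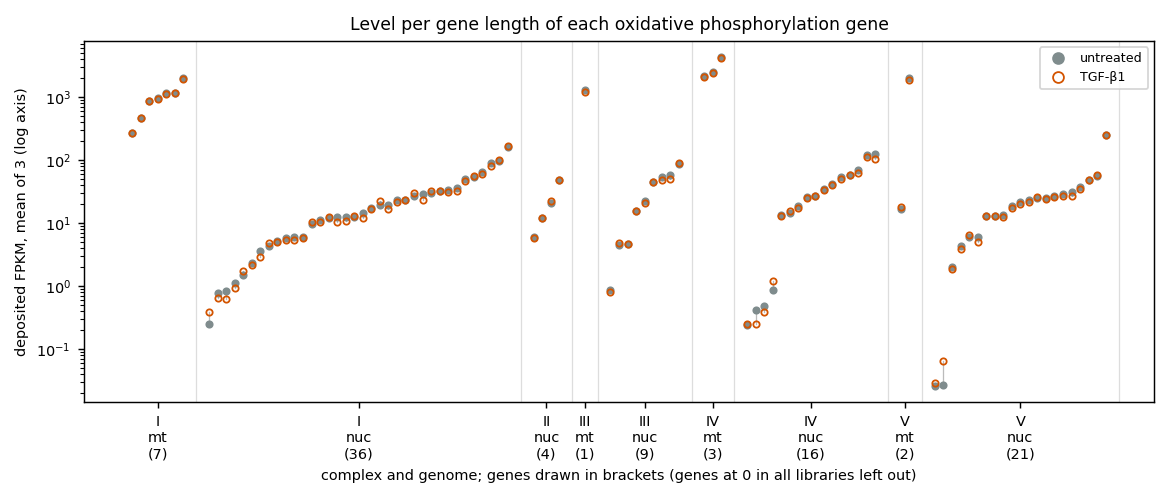
Deposited FPKM (log axis) of each gene, mean of 3 libraries, for untreated cells (filled grey) and TGF-β1 cells (open orange), by complex and genome; the 4 genes at 0 in all libraries are left out. All mitochondrial genes but MT-ATP8 (17.4 FPKM) sit above the highest nuclear gene, ATP5F1B at 255, and the markers of the 2 groups lie close together for most genes.

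In the nuclear genes of complexes I to V the median levels were 12.7, 17.0, 21.9, 17.9 and 21.2 FPKM. The highest in each were NDUFS5 at 163, SDHA (the flavoprotein of succinate dehydrogenase) at 48.5, UQCRC1 (a core protein of complex III) at 88.6, COX6B1 at 118 and ATP5F1B at 255. This order depends on annotated length: by CPM, NDUFS1 (12268 exonic bases) was above NDUFS5 (548 bases), at 217 against 89.9 CPM untreated. Some subunits of complex I that the assembled enzyme needs were low in this table: NDUFV2, an iron-sulfur core subunit, had 0.842 ± 0.129 FPKM untreated and 0.613 ± 0.215 with TGF-β1 (SD, n = 3 each), and NDUFA13 had 0.776 ± 0.076 and 0.651 ± 0.120. Counts on the annotated pseudogene of NDUFV2 came to 93.7% of those on the gene itself. For COX6A1 and SDHA, counts on annotated pseudogenes came to 14.5% and 7.43% of those on the gene. NDUFA7 stood at 0.244 ± 0.086 and 0.384 ± 0.251 FPKM, and 33.5% of its exonic bases are shared with other annotated genes. The sources used here do not say how reads were divided between such genes, so these levels are uncertain.

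Isoform pairs gave the form that is usual outside heart, muscle and testis. COX4I2, COX6A2 and COX8C, which are known from lung, muscle or testis, had 0 counts in all 6 libraries, as did NDUFC2-KCTD14; 3 counts of the 168977692 counts in all, the upper limit that 0 allows, would be 0.0178 CPM (counting error only). COX6B1 made up 99.7 ± 0.135% of the COX6B level untreated and 99.8 ± 0.0179% with TGF-β1 (share of FPKM, SD, n = 3 each), and COX7A2 made up 98.6 ± 0.774% and 98.0 ± 0.833% of the COX7A1 and COX7A2 level. NDUFA4 made up 97.4 ± 1.11% and 97.8 ± 0.381% of its level with NDUFA4L2. The 3 genes for the identical c subunit of the membrane ring of ATP synthase shared their level more evenly, at 36.6 ± 1.13% for ATP5MC1, 45.0 ± 0.932% for ATP5MC2 and 18.4 ± 0.905% for ATP5MC3 without TGF-β1. With TGF-β1 these were 37.9 ± 0.931%, 41.8 ± 1.17% and 20.3 ± 0.410%, and the 3 ATP5MC2 shares (43.1, 41.6 and 40.8%) lay below the 3 untreated shares (45.7, 45.2 and 43.9%). The split between these genes depends on their annotated lengths of 2615, 3991 and 6780 bases, which are the same in both groups.

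The comparison asked how these genes differed between TGF-β1 and untreated cells. Most moved little. Among the 96 genes with enough counts to be tested, 87 (90.6%) changed by less than 0.25 on the log2 scale, and the median size of change was 0.09, against 0.22 over all 17215 tested genes. Changes of at least 0.5 were seen in 3 members (3.13%), against 22.4% of all tested genes. For tested protein-coding genes alone the median size was 0.20 and the share 19.1%. The members were also more abundant, at a median of 56.7 CPM, against 28.7 for protein-coding and 15.8 for all tested genes. The 3 members with such changes were NDUFA7 (0.63), COX7A1 (0.51) and COX6B2 (-0.74), all low in counts. None passed the test under TMM, the scaling of these values, which is described below. Genes not tested for want of counts were the 4 at 0, COX7B2 (35 counts in all), ATP5MF-PTCD1 (14) and ATP5MGL (6).

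Changes were called with edgeR's quasi-likelihood test at a Benjamini-Hochberg adjusted p under 0.05 over all tested genes. Counts were scaled either by TMM (trimmed mean of M values), which centres most genes on no change, or by library totals, under which a gene is read as its share of all counts. Under TMM, 2 genes were higher with TGF-β1 (2.08%, against 20.2% of all tested genes), 16 were lower (16.7%, against 18.7%) and 78 did not pass. Under library totals, 0 were higher, with 0 at an unadjusted p under 0.05 (background 11.7%), and 55 were lower (background 31.1%). The share lower was thus near the background under TMM, and above it under totals. The median of all tested genes was -0.01 on the log2 scale under TMM and -0.13 under totals, a shift of -0.12, and the medians of the members were -0.06 and -0.18, so that the members lay 0.06 below all genes under both. Under TMM this distance was 0.03 without TGF-β1 replicate 1 and 0.04 without untreated replicate 3, and the nuclear median went from -0.07 to -0.03 and -0.05. The sizes of the called changes ran from 0.07 to 0.30 on the log2 scale, with a median of 0.19.

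The TMM values of the 3 TGF-β1 libraries all lay below the 3 untreated ones in 17 of the 96 genes and all above in 5, and overlapped in 74; groups did not overlap in 47.4% of all tested genes. Single libraries bore on the count. Without untreated replicate 3 there were 8 lower genes, and without TGF-β1 replicate 1 there were 10, while the other 4 omissions gave 11 to 18. In untreated replicate 3 the nuclear members lay a median of 0.05 above their untreated mean on the log2 scale, and in TGF-β1 replicate 1 they lay 0.13 below it, against -0.03 and -0.03 in the other two TGF-β1 libraries.

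**Figure D2:**
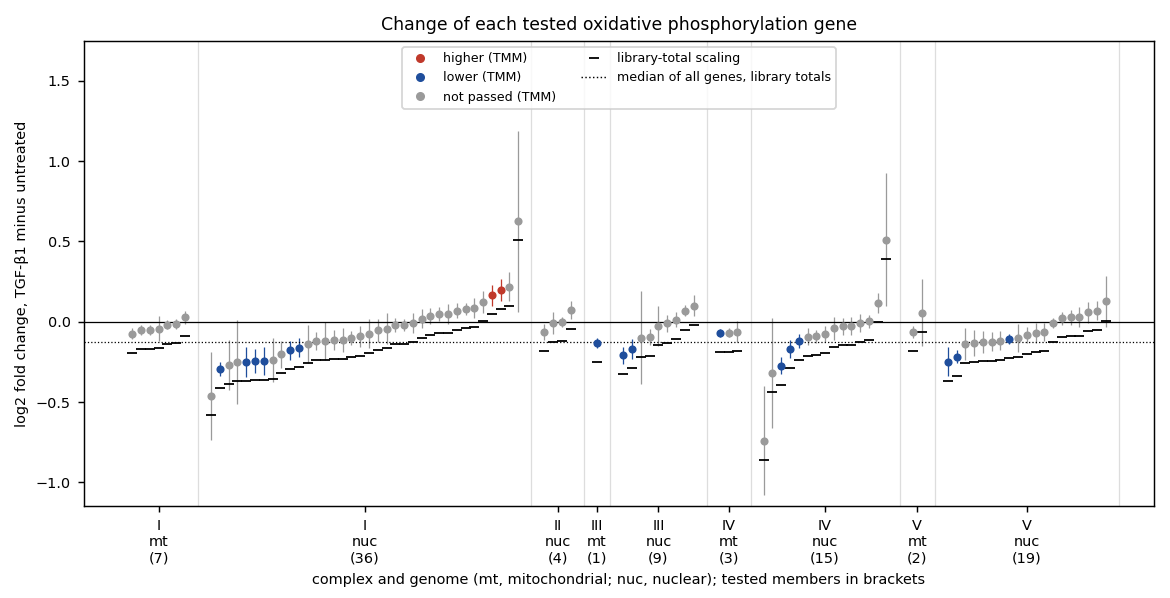
Log2 fold change (TGF-β1 minus untreated) of each of the 96 tested genes, by complex and genome, as points with SE under TMM scaling, coloured by the edgeR call, and as dashes under library-total scaling; the dotted line is the median of all tested genes under library totals (-0.13). Most points lie within 0.25 of 0, the 16 lower genes are spread over complexes I, III, IV and V, and the 2 higher genes are both in complex I.

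Summed over genes, both genomes' transcripts took a smaller share of the library total with TGF-β1. The 13 mitochondrial genes took 2.08, 2.08 and 2.15% of the counts in untreated libraries and 1.83, 1.92 and 1.81% with TGF-β1. The 90 nuclear genes took 0.645, 0.647 and 0.669% and then 0.567, 0.599 and 0.590%. In neither sum did the groups overlap. The ratio of mitochondrial to nuclear counts was 3.22, 3.22 and 3.21 untreated and 3.23, 3.20 and 3.07 with TGF-β1, so these overlapped and 1 TGF-β1 library, replicate 3, was lower than the rest. These are shares of library totals; the TMM factors averaged 1.04 in untreated and 0.960 in TGF-β1 libraries. Over TMM-scaled totals the groups overlapped in both sums, at 1.99, 2.00 and 2.07% against 1.91, 2.00 and 1.88% for the mitochondrial genes and 0.619, 0.621 and 0.643% against 0.591, 0.625 and 0.613% for the nuclear ones.

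**Figure D3:**
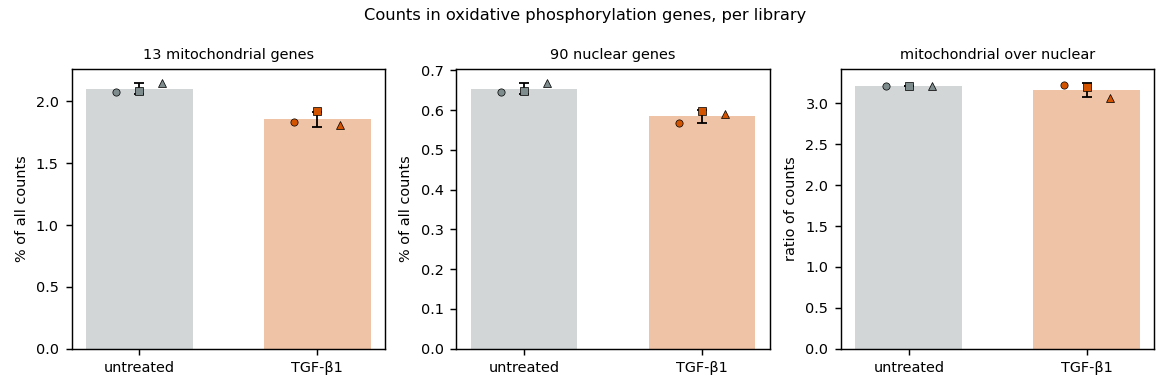
Percent of all counts in the 13 mitochondrial and the 90 nuclear genes, and the ratio of the 2, per library (circle, square and triangle for replicates 1 to 3), with bars for the mean of 3 and lines for the SD. Both shares are lower in each TGF-β1 library than in each untreated one, and the ratio stays between 3.07 and 3.23.

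By genome of origin, the medians lay close together. Of 83 tested nuclear genes, 2 were higher and 14 lower under TMM (median -0.07), and of 13 mitochondrial genes 0 were higher and 2 lower (median -0.05); for the 0, edgeR gave 0 at an unadjusted p under 0.05, and DESeq2 and limma-voom called 0. Under library totals 45 of the 83 and 10 of the 13 were lower (medians -0.19 and -0.17) and none was higher. The shares lower under TMM were 16.9% for nuclear and 15.4% for mitochondrial genes, near the 18.7% of all tested genes, of which 20.2% were higher. Under library totals the background was 31.1% lower and 11.7% higher. The difference between the 2 genomes was not tested.

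By complex, complex I had 2 higher and 6 lower genes of 43 tested under TMM (median -0.05), complex III 0 and 3 of 10 (-0.06), complex IV 0 and 4 of 18 (-0.07), and complex V 0 and 3 of 21 (-0.07). Complex II had none of 4 in either direction (median -0.00), and none at an unadjusted p under 0.05. For the other counts of 0 higher, edgeR at an unadjusted p under 0.05 gave 1 gene in complex III and 0 in complexes IV and V, and DESeq2 and limma-voom called 0 in each. Under library totals the lower counts were 21, 2, 4, 13 and 15 for complexes I to V, with medians of -0.17, -0.12, -0.18, -0.19 and -0.19 and none higher. No test of a difference between complexes was made.

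In complex I, the 7 nuclear core subunits carry the flavin and iron-sulfur clusters, and 1 of them passed under TMM, against 4 under library totals, all lower. Over all tested genes 18.7% were lower under TMM and 31.1% under library totals. NDUFS8, which holds iron-sulfur clusters near the ubiquinone site (chr11:68030617-68036644 in the deposited coordinates, plus strand), had 127, 139.7 and 135 normalised CPM untreated and 104, 115 and 108 CPM with TGF-β1. All TGF-β1 libraries lay below all untreated ones, a log2 change of -0.30 ± 0.04 (SE; adjusted p = 3.21e-07), or -0.42 under library totals. It was the most firmly called of all the subunit genes and passed under every one of the 15 count-based alternatives.

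The other core subunits did not pass under TMM. NDUFS1, the largest iron-sulfur subunit, had 216, 215 and 220.2 CPM and then 209, 213 and 220.4 CPM (log2 change -0.02 ± 0.03, adjusted p = 0.692). NDUFV1, which binds NADH, had 163, 159 and 156 CPM and then 168, 167 and 169.9 CPM; the groups did not overlap, but the change of 0.08 ± 0.04 did not pass (adjusted p = 0.0778) and under library totals it was -0.04.

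Of the 29 supernumerary subunits, which surround the core of complex I, 2 were higher, 5 were lower and 22 did not pass under TMM. Under library totals 0 were higher and 12 lower. The shares over all tested genes were 20.2% higher and 18.7% lower under TMM, and 11.7% and 31.1% under library totals. NDUFA3 had 33.8, 37.9 and 37.8 CPM untreated and 27.5, 33.3 and 31.4 CPM with TGF-β1, without overlap (-0.25 ± 0.07, adjusted p = 0.00634; 0.0793 without TGF-β1 replicate 1). NDUFA2 had 18.3, 18.98 and 19.4 CPM and then 15.5, 17.3 and 14.9 CPM, again without overlap (-0.25 ± 0.09, adjusted p = 0.0311). The other lower ones were NDUFB6 (-0.24), NDUFB7 (-0.18) and NDUFA12 (-0.16), named after their values were seen, of which NDUFB6 and NDUFA12 overlapped between the groups. The NDUFA2, NDUFB6 and NDUFA12 calls were lost without untreated replicate 3 and without TGF-β1 replicate 1 or 3, that of NDUFA2 also without untreated replicate 2, and that of NDUFB7 without untreated replicate 3. NDUFA12 also did not pass by the DESeq2 Wald test, nor NDUFA2 with no filter on low counts (adjusted p = 0.0504).

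The 2 higher genes were both supernumerary subunits of complex I. NDUFB4, a subunit of the membrane arm (chr3:120596309-120602500, plus strand), had 37.1, 36.8 and 38.1 CPM untreated and 39.4, 47.5 and 41.4 CPM with TGF-β1, without overlap (0.20 ± 0.07, adjusted p = 0.0157). NDUFA5, of the peripheral arm, had 44.8, 40.0 and 47.0 CPM and then 44.2, 52.9 and 50.3 CPM, with overlap (0.16 ± 0.07, adjusted p = 0.0489). Both calls depended on the scaling and on single libraries: under library totals the changes were 0.08 and 0.05 with adjusted p of 0.360 and 0.630, and without TGF-β1 replicate 2, or without untreated replicate 1 or 2, neither passed. Neither passed with upper-quartile factors. NDUFA5 also did not pass by the DESeq2 Wald test (adjusted p = 0.0903) or limma-voom (adjusted p = 0.0585), nor without TGF-β1 replicate 3.

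Complex II, the only one with no mitochondrial subunit, had the median nearest to 0. SDHA had 407, 431 and 416 CPM untreated and 417, 419.7 and 415 CPM with TGF-β1, so that the TGF-β1 values fell within the untreated range (-0.00 ± 0.03, adjusted p = 0.967). SDHB, the iron-sulfur subunit, had 52.3, 51.7 and 57.5 CPM and then 57.2, 55.4 and 57.3 CPM (0.07 ± 0.06, adjusted p = 0.323), a sign that turned to -0.05 under library totals. Under library totals SDHA passed as lower (-0.12, adjusted p = 0.00139), a size equal to the shift of all genes between the scalings.

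In complex III, UQCRQ, a small subunit that lies next to cytochrome b (chr5:132866560-132868031, plus strand), had 81.2, 88.5 and 96.8 CPM untreated and 71.2, 79.6 and 79.3 CPM with TGF-β1. The groups did not overlap, and the change of -0.21 ± 0.05 passed (adjusted p = 0.00247; -0.33 under library totals) and kept its call under all 15 count-based alternatives. Of its exonic bases 20.8% are shared with GDF9 on the opposite strand. UQCR10, another small subunit, had 50.4, 51.8 and 61.5 CPM and then 47.5, 48.0 and 50.1 CPM (-0.17 ± 0.06, adjusted p = 0.0307), and its call was lost without untreated replicate 3, the highest library, as it was without TGF-β1 replicate 1 or 2, and it also did not pass by the DESeq2 Wald test (adjusted p = 0.0601) or limma-voom (adjusted p = 0.0579). The core proteins did not pass under TMM: UQCRC1 changed by 0.07 (-0.05 under library totals) and UQCRFS1, the Rieske iron-sulfur protein, by -0.09. Under library totals UQCRFS1 passed as lower (-0.21, adjusted p = 4.64e-04) and UQCRC1 did not pass.

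In complex IV the nuclear subunits form the outer shell around the catalytic core. COX8A, the smallest of them (chr11:63974607-63976543, plus strand), had 66.2, 63.3 and 69.6 CPM untreated and 55.8, 57.1 and 51.8 CPM with TGF-β1. The groups did not overlap, and the change of -0.27 ± 0.05 passed (adjusted p = 6.08e-05; -0.39 under library totals) and did so under all 15 count-based alternatives. A second annotated gene on the same strand, AP000721.1, shares 34.5% of the exonic bases of COX8A.

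COX7C had 143, 135 and 154 CPM and then 116, 131 and 137 CPM, with overlap (-0.17 ± 0.06, adjusted p = 0.0300), and COX6B1, which faces the intermembrane space, had 116, 120.3 and 119 CPM and then 103, 114 and 109.5 CPM, without overlap (-0.12 ± 0.04, adjusted p = 0.0216). The COX7C call was lost without replicate 1 or 3 of the untreated or 1 or 2 of the TGF-β1 libraries, and the COX6B1 call without replicate 2 or 3 of the untreated or 1 or 3 of the TGF-β1 libraries. COX4I1, the largest nuclear subunit, had 167, 169 and 186 CPM and then 157, 168 and 166 CPM (-0.09 ± 0.04, adjusted p = 0.0706). COX7A2, COX6A1 and NDUFA4 gave 0.00, -0.04 and -0.09 under TMM, none past the test. Under library totals COX7A2 (-0.12), NDUFA4 (-0.21) and COX4I1 (-0.21) passed as lower, and COX6A1 did not pass. COX6B2, a testis form at 2.33, 1.31 and 1.21 CPM untreated and 1.01, 0.976 and 0.926 CPM with TGF-β1, did not pass under TMM (-0.74 ± 0.34, adjusted p = 0.0804) and passed under library totals (-0.86, adjusted p = 0.0367); without untreated replicate 1, its highest library, the TMM value was -0.38. COX7A1 (0.51 ± 0.41) and NDUFA4L2 (-0.32 ± 0.34) overlapped between the groups.

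In complex V, ATP5MC2, one of the 3 genes for the c subunit (chr12:53632726-53677408, minus strand), had 125, 129.7 and 129 CPM untreated and 109, 112 and 109.5 CPM with TGF-β1. The groups did not overlap (-0.22 ± 0.04, adjusted p = 1.91e-05; -0.34 under library totals), and the call was kept under all 15 count-based alternatives. ATP5MC1 and ATP5MC3 did not pass under TMM. Under library totals ATP5MC1 passed as lower (-0.18, adjusted p = 0.00552) and ATP5MC3 did not pass. ATP5PO, the stalk subunit that gives oligomycin sensitivity, had 19.8, 21.1 and 20.6 CPM and then 17.1, 18.3 and 16.4 CPM, without overlap (-0.25 ± 0.09, adjusted p = 0.0224), with 25.4% of its exonic bases shared with other genes. Its call was lost without untreated replicate 2 or 3 and without TGF-β1 replicate 1 or 3.

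The F1 head, which makes ATP, had 1 lower gene of 5 under TMM and 4 under library totals. ATP5F1A, its alpha subunit, had 328, 324 and 334 CPM and then 303, 312 and 299 CPM, without overlap (-0.11 ± 0.03, adjusted p = 0.00559; adjusted p = 0.0572 without TGF-β1 replicate 3). ATP5F1B, the beta subunit that pairs with it, had 605, 619 and 609 CPM and then 603, 619 and 602 CPM (-0.01 ± 0.03, adjusted p = 0.881). Under library totals ATP5F1B passed as lower (-0.13, adjusted p = 4.25e-04). The 5 small membrane subunits gave 0 calls under TMM and 2 lower under library totals. For both sets the background was 18.7% of all tested genes lower under TMM and 31.1% under library totals. The inhibitor ATP5IF1 had 44.1, 38.0 and 46.8 CPM and then 38.0, 41.3 and 38.8 CPM (-0.13 ± 0.07, adjusted p = 0.154). Under library totals ATP5IF1 passed as lower (-0.24, adjusted p = 0.00335).

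**Figure D4:**
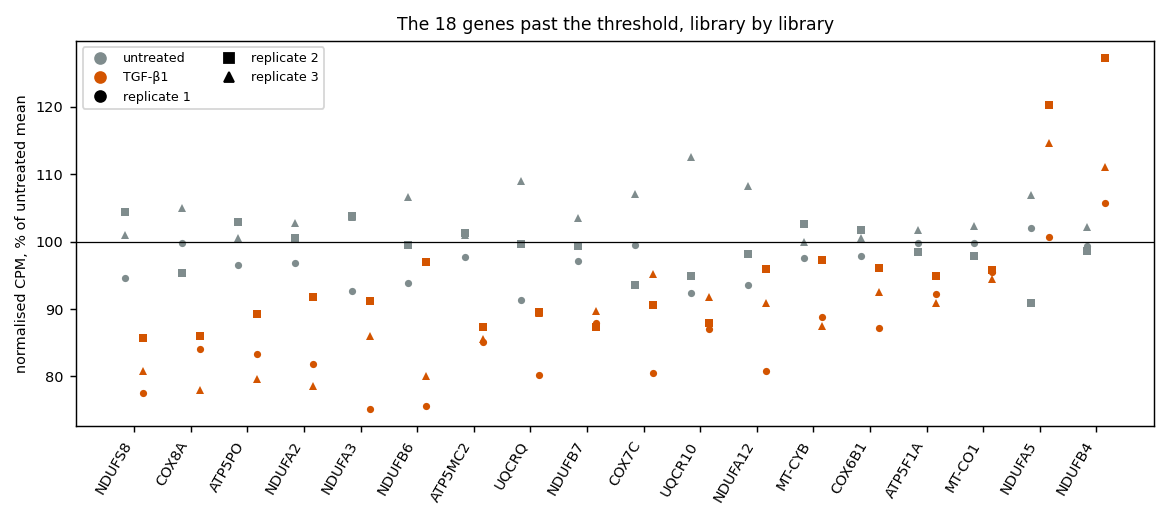
Normalised CPM (TMM) of the 18 genes past the threshold, in each library, as percent of the untreated mean (grey untreated, orange TGF-β1; circle, square and triangle for replicates 1 to 3). In 13 of the 16 lower genes all TGF-β1 libraries lie below all untreated ones, and NDUFA5, NDUFB6, NDUFA12 and COX7C overlap.

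Among the 13 mitochondrial genes, which are copied as long joint transcripts and then cut apart, 2 passed under TMM. Both were lower (15.4%, against 18.7% of all tested genes). MT-CYB, the cytochrome b of complex III, had 1525, 1604 and 1562 CPM untreated and 1389, 1521 and 1368 CPM with TGF-β1, without overlap (-0.13 ± 0.03, adjusted p = 9.97e-04), and was lower under all 15 count-based alternatives. MT-CO1, the catalytic subunit of complex IV, had 6892, 6762 and 7069 CPM and then 6595, 6620 and 6527 CPM, without overlap (-0.07 ± 0.02, adjusted p = 0.0201), a call lost with no filter on low counts and without replicate 1 or 3 of the untreated or 2 or 3 of the TGF-β1 libraries. Both are of small size: MT-CYB fell by 8.78% and MT-CO1 fell by 4.73%.

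The other 2 catalytic-core genes of complex IV did not pass under TMM. MT-CO3 had 1782, 1702 and 1776 CPM and then 1654, 1752 and 1610 CPM (-0.07 ± 0.03, adjusted p = 0.0618), and MT-CO2 had 1712, 1758 and 1889 CPM and then 1694, 1848 and 1594 CPM (-0.06 ± 0.06, adjusted p = 0.530). The groups overlapped in both.

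None of the 7 mitochondrial genes of complex I, which form its proton-pumping arm, passed under TMM. MT-ND4 had 2769, 2828 and 2962 CPM and then 2704, 2918 and 2635 CPM (-0.05 ± 0.03). MT-ND1, MT-ND2, MT-ND3, MT-ND4L and MT-ND5 gave -0.02, -0.05, -0.04, -0.07 and -0.01, and MT-ND6 gave 0.03 (-0.09 under library totals). In complex V, MT-ATP6, the channel subunit beside the c ring, had 1385, 1410 and 1414 CPM and then 1289, 1449 and 1288 CPM (-0.06 ± 0.03), and MT-ATP8 had 3.19, 3.54 and 4.14 CPM and then 5.01, 3.55 and 2.74 CPM (0.05 ± 0.21, or -0.06 under library totals). Under library totals all but MT-ND3, MT-ND6 and MT-ATP8 passed as lower, where 31.1% of all tested genes did so. Counts on nuclear pseudogene copies came to 21.6% of those on MT-ATP6 and 4.31% of those on MT-ND2, so the levels of these 2 genes depend on how reads were assigned. MT-ATP8 shares 22.2% of its bases with MT-ATP6.

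**Figure D5:**
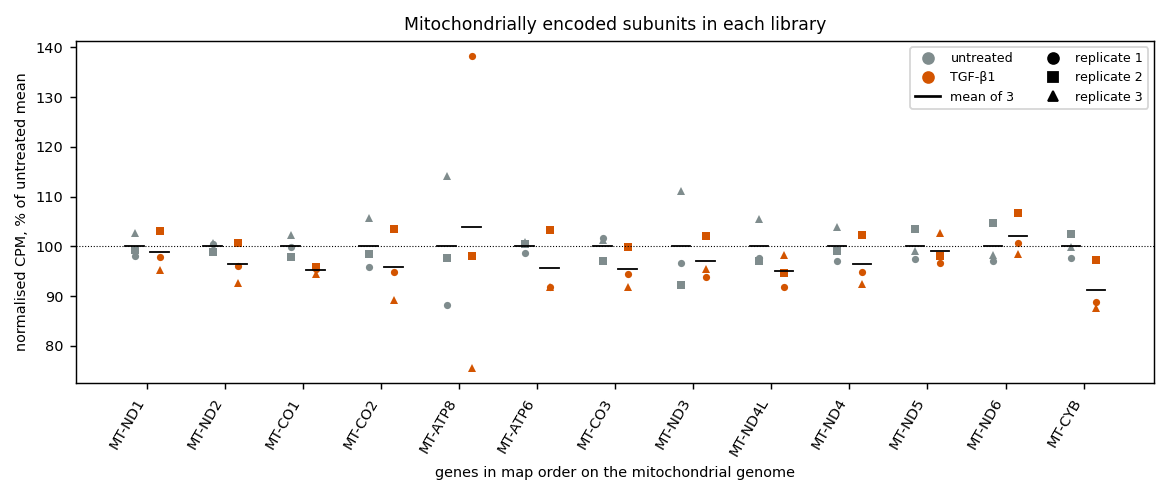
Normalised CPM (TMM) of the 13 mitochondrial genes in each library, as percent of the untreated mean, in map order (grey untreated, orange TGF-β1; circle, square and triangle for replicates 1 to 3; black lines are means of 3). In MT-CO1 and MT-CYB the groups do not overlap, in the other 11 they do, and MT-ATP8, the gene with the lowest count, is spread the most.

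Over all tested protein-coding genes, shorter genes had lower median changes. Among tested protein-coding genes, the median log2 change under TMM was -0.09 for 145 genes under 1000 bases, -0.03 for 940 genes of 1000 to 2000 bases, -0.01 for 3646 of 2000 to 4000 bases and 0.00 for 8713 of 4000 bases and over. The nuclear members in the same bins had medians of -0.12 (9 genes), -0.04 (21), -0.09 (31) and -0.02 (22). The part of length in the members' values was not tested.

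Of the chain's genes outside the symbol rule, NDUFAB1, CYC1 and CYCS were looked at, and all 3 were higher under TMM. NDUFAB1, the acyl carrier protein of complex I, changed by 0.17 ± 0.06 (41.9 ± 1.54 to 47.1 ± 2.79 CPM, SD, n = 3 each; adjusted p = 0.0289), CYC1, the cytochrome c1 of complex III, by 0.13 ± 0.04 (87.9 ± 2.81 to 96.3 ± 2.19 CPM; adjusted p = 0.0155), and CYCS, cytochrome c itself, by 0.19 ± 0.05 (80.5 ± 2.64 to 91.5 ± 2.99 CPM; adjusted p = 0.00104). In all 3 the groups did not overlap under TMM, where 20.2% of all tested genes were higher. None of the 3 passed under library totals (0.05, 0.01 and 0.07), where 11.7% of all tested genes were higher.

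The factors that assemble the complexes gave calls in both directions under TMM and almost all lower under library totals, where 0 were higher and 6 lower for complex I, 0 and 4 for complex III, 1 and 7 for complex IV, 0 and 4 for complex V, and none was called for complex II. Calls over all tested genes also leaned lower under library totals, at 11.7% higher and 31.1% lower, against 20.2% and 18.7% under TMM. Values that follow are under TMM. For complex I, 2 of 20 rose (NDUFAF4 by 0.34 and NDUFAF2 by 0.26) and 2 fell (NDUFAF3 at -0.28 and COA1 at -0.25). For complex III, BCS1L, which inserts the Rieske protein, rose by 0.30 and HCCS by 0.16, while UQCC1 (-0.26) and TTC19 (-0.20) fell, of 7 in all. For complex IV, 6 of 28 rose, among them APOPT1 (0.37), and 2 fell, COX14 (-0.37) and COA5 (-0.33). For complex V, ATPAF1, which assembles the F1 head, fell by 0.49 on the log2 scale (40.2 ± 2.15 to 28.5 ± 4.41 CPM, adjusted p = 9.07e-06), and OXA1L, an inner membrane insertase, was at -0.22, with no rise among the 4 tested. None of the 4 tested factors of complex II was called, with SDHAF1 and SDHAF2 at -0.00 and -0.03.

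Genes of ubiquinone synthesis and electron entry were lower in 8 of 19 under TMM (42.1%, against 18.7% of all tested genes) and higher in 1 (COQ10B at 0.16), with a list median of -0.20. COQ10A (-0.50), COQ7 (-0.42), a hydroxylase of ubiquinone synthesis, and COQ8A (-0.41) fell the most. In the citric acid cycle and pyruvate dehydrogenase list 5 of 21 rose (DLAT and SUCLG1 at 0.23, CS at 0.19, SUCLA2 at 0.17 and DLST at 0.13) and 6 fell, with SUCLG2, a subunit of succinyl-CoA ligase, at -0.52, the pyruvate carrier subunit MPC2 at -0.51 and pyruvate carboxylase PC at -0.47. Under TMM 5.26% of the ubiquinone list and 23.8% of the citric acid list were higher, against 20.2% of all tested genes. In the citric acid list 28.6% were lower, against 18.7%. Under library totals 11 of 19 and 11 of 21 genes were lower, against 31.1% of all tested genes. None was higher in either list, against 11.7%.

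Genes that express the mitochondrial genome or bring proteins into mitochondria gave more calls higher than lower under TMM, set against 20.2% higher and 18.7% lower over all tested genes. The shares higher were 27.6% for RNA processing, 37.5% for import and 20.8% and 20.7% for the large and small ribosomal subunit, so that the ribosomal lists were at the background, and the shares lower were 3.45, 4.17, 6.25 and 3.45%. For mitochondrial RNA processing, 8 of 29 rose and 1 fell, with TRMT10C, a subunit of mitochondrial RNase P, at 0.36, PUS1 at 0.32 and RPUSD3 at -0.34. For protein import, 9 of 24 rose and 1, TIMM17B (-0.21), fell, with the outer membrane receptor TOMM20 at 0.31, TIMM17A at 0.29 and the pore TOMM40 at 0.25. For the mitochondrial ribosome, 10 of 48 large-subunit genes rose (MRPL48 by 0.35, MRPL37 by 0.34 and MRPL32 by 0.32 among them) and 3 fell (MRPL34 at -0.30, MRPL17 at -0.27 and MRPL57 at -0.23), and 6 of 29 small-subunit genes rose and 1, MRPS16 (-0.23), fell. Under library totals, 11.7% of all tested genes were higher and 31.1% lower. There the ribosomal lists had more lower than higher calls, at 3 higher and 12 lower of 48 in the large subunit and 0 and 11 of 29 in the small one. Import gave 3 higher and 3 lower of 24, and RNA processing 2 and 3 of 29.

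For the lists that follow, the background was 20.2% higher and 18.7% lower under TMM, and 11.7% and 31.1% under library totals. Genome maintenance and transcription gave 5 higher and 5 lower of 19 under TMM, and 1 and 8 under library totals. The helicase TWNK (0.45), TFB2M (0.33), the mitochondrial RNA polymerase POLRMT (0.22), POLG (0.21) and SSBP1 (0.21) were higher, and the thymidine kinase TK2 (-0.53), the methyltransferase TFB1M (-0.51), RRM2B (-0.38), LONP1 (-0.22) and MGME1 (-0.19) were lower. Translation factors gave 2 higher (MTRF1L at 0.19 and the elongation factor TUFM at 0.11, or -0.01 under library totals) and 1 lower (GFM2 at -0.16) of 12, and cristae organisation gave 2 higher of 10 (OPA1 at 0.18 and CHCHD3 at 0.14). Under library totals translation factors gave 0 higher and 2 lower and cristae genes 0 and 1. Of 19 tested regulators of mitochondrial gene expression, 7 rose and 5 fell under TMM, and 5 and 8 did so under library totals. MYC, a growth-promoting transcription factor, rose by 1.15 (67.0 ± 2.87 to 149 ± 1.06 CPM, SD, n = 3 each; adjusted p = 4.03e-25), TFEB, of lysosome and mitochondrial gene control, by 0.66, and GABPB1, the beta subunit of the ETS-type GA-binding protein, by 0.56, and all 3 were also higher under library totals. The 5 that fell were SIRT3 (-0.37), SIRT1 (-0.26), TFE3 (-0.19), PPARA (-0.17) and PPARGC1A, the coactivator PGC-1α, which was at 0.732 ± 0.540 and then 0.126 ± 0.0437 CPM (-2.48 ± 0.65, adjusted p = 0.00193) on few counts. NRF1 (23.9 ± 1.04 to 22.5 ± 0.638 CPM), GABPA (34.0 ± 3.68 to 35.6 ± 2.87), YY1 (145 ± 0.743 to 167 ± 4.36) and ESRRA (37.3 ± 1.35 to 49.3 ± 2.70) were looked up, after their values were seen, because motifs of these factors are named above. Under TMM ESRRA passed, at 0.40 (adjusted p = 9.90e-07; 0.28 and adjusted p = 2.52e-04 under library totals), YY1 passed, at 0.21, and NRF1 (-0.08) and GABPA (0.07) did not; under library totals NRF1 passed as lower (-0.20, adjusted p = 0.0395), YY1 did not pass (0.09) and GABPA was at -0.05.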

How the data were processed

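RNA-seq read counts and FPKM values for 6 LX-2 libraries in 2 groups of 3 were used. The deposited counts are whole numbers per gene, not normalised, and the deposited FPKM are the authors' values, which equal counts over gene length and over a library size; that size was 1.07 to 1.08 of the total count (untreated) or 0.984 to 0.987 of it (TGF-β1). Gene length is the number of exonic bases in the deposited table. The submitters' processing notes name build hg38, HISAT2 2.2.1 and fastp. The sources used here do not give the counting tool or its use of strand. In each of the deposited tables, 6 other columns of values belong to no sample listed here and were left aside. All 103 members matched GENCODE release 29 in position and exonic length.

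Counts were tested in R 4.3.3 with edgeR 4.0.16 (filterByExpr, minimum count 10 and total 15; robust quasi-likelihood fit, group only, two-sided, Benjamini-Hochberg over 17215 tested genes), with TMM factors or library totals. Normalised CPM uses TMM-scaled library sizes. Fold changes are log2 with SE. The biological coefficient of variation was 5.62%. The scripts were tested on simulated data. Alternatives were DESeq2 1.42.0 size factors and Wald test, upper-quartile factors, scaling without mitochondrial genes, other filters, limma-voom and limma 3.58.1 on log2 FPKM, the replicate number as a block, and each library left out.

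Members, lists and tests were chosen with earlier results of these data known. Named genes are all mitochondrial members, from each complex the 3 higher and 3 lower called nuclear members with the largest change and a mean of at least 5 CPM, set core subunits, isoform pairs and the inhibitor ATP5IF1, up to 3 called genes of each other list (or the 2 most abundant where none was called), every gene where 5 or fewer members were counted, and NSUN2.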

Additional observations from a re-analysis of the deposited data

How the results depend on the processing

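Scaling moved the counts most. Over all tested genes 11.7% were higher and 31.1% lower with library totals, and 16.4% and 22.6% with upper-quartile factors. With library totals there were 0 higher and 55 lower subunit genes (nuclear 0 and 45, mitochondrial 10 lower, complex I 0 and 21, complex II 2, complex IV 13, complex V 15 lower), and with upper-quartile factors 0 higher and 32 lower (nuclear 0 and 25, mitochondrial 7, complex I 0 and 13, complex IV 7, complex V 8). DESeq2 called 1 higher gene and 14 lower, limma-voom 1 and 16, and limma on log2 FPKM 0 higher and 9 lower with a pseudocount of 1 or 0.1, and 0 and 7 with no filter; the higher gene under DESeq2 and voom was nuclear and in complex I. With no filter on low counts 1 mitochondrial gene was lower. Leaving out each library in turn gave 0 to 3 higher and 8 to 18 lower genes (nuclear 0 to 3 and 7 to 16, mitochondrial 1 to 6 lower, complex I 0 to 2 and 2 to 8, complex III 0 to 1 higher, complex IV 2 to 5 lower). For the replicate numbers, the correlation of same-numbered libraries was -0.00, 0.01 and -0.01, so no pairing was found; with the replicate number as a block 1 gene was higher (nuclear, complex I) and 16 lower, and NDUFA5 no longer passed (adjusted p = 0.0612).

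Of 18 called genes, 5 were called under all 15 count-based alternatives: NDUFS8, MT-CYB, UQCRQ, COX8A and ATP5MC2. Signs turned only for changes that had not passed, apart from TUFM. Under library totals MT-ND6 was -0.090, NDUFV1 -0.039, SDHB -0.045, UQCRC1 -0.050, COX7A2 -0.12, MT-ATP8 -0.064 and TUFM -0.0086; with upper-quartile factors MT-ND6 was -0.016 and COX7A2 -0.042, and with at least 1 CPM in 3 libraries COX7A2 was -0.0022. Leaving out single libraries gave ranges that crossed 0 for MT-ND1 (-0.046 to 0.012), MT-ND3 (-0.10 to 0.036), MT-ND5 (-0.034 to 0.0095), MT-ND6 (-0.0019 to 0.058), NDUFS1 (-0.038 to 0.0015), SDHA (-0.024 to 0.017), COX6A1 (-0.10 to 0.028), COX7A2 (-0.020 to 0.019), NDUFA4L2 (-0.56 to 0.034), MT-ATP8 (-0.19 to 0.24), ATP5F1B (-0.017 to 0.0047), SDHAF1 (-0.060 to 0.047) and SDHAF2 (-0.094 to 0.050). With 3 libraries a group and a biological coefficient of variation of 5.62%, a gene that did not pass is not shown to be unchanged. The cause of these dependences was not tested.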

Other observations

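Of the 96 tested subunit genes, 5 had all 3 TGF-β1 libraries above the untreated ones under TMM, and of these NDUFB4 passed while NDUFA9 (0.22 ± 0.09 on the log2 scale, adjusted p = 0.0564), NDUFS4 (0.12), NDUFB9 (0.09) and NDUFV1 (0.08) did not; all 5 belong to complex I. Among all tested genes the TGF-β1 libraries lay above in 24.1%, and under library totals the groups overlapped in all of these 5 but NDUFA9. Of the 17 with all TGF-β1 libraries below under TMM, 13 passed under TMM and NDUFA10, COX6B2, ATP5F1D and ATP5PF did not. The share of all tested genes with the TGF-β1 libraries below was 23.3%. The mitochondrial ribosomal RNAs, which are not subunit genes, took 0.204 ± 0.00596% of counts without TGF-β1 and 0.190 ± 0.00953% with it (SD, n = 3 each), and the groups overlapped.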
